A study of Rattus norvegicus with 36 samples.

Results

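The comparison sets dorsal root ganglia at spinal level L5, whose own spinal nerve had been ligated, against the neighbouring L4 ganglia of operated rats, whose own nerve had not been ligated, both 50 days after the operation. Its members were chosen by the sample titles and comprise 12 of the 36 arrays of the series, 2 arrays of each of 3 chip types for each ganglion. L5 spinal nerve ligation is a rat model of neuropathic pain, and the dorsal root ganglia beside the spinal cord hold the cell bodies of the sensory neurons together with their glia, vessels and resident immune cells. Total RNA was pooled, from 30 rats in every pool with a stated number, and each pool was hybridised to 2 technical arrays of each of the Affymetrix RG_U34 chips A, B and C. The remaining pools were L5 and L4 ganglia at 28 days after the same operation, and sham-operated ganglia at 28 and at 50 days, in which L4 and L5 ganglia had been combined. The labels of 1 chip B sham array disagree on its day, 28 in the title and 50 in the description; the title was followed. No pool of normal L5 or normal L4 ganglia alone was analysed here, so any difference between the levels that precedes the operation is part of every L5 against L4 value. Strain, sex and age of the rats are not given in the sources used here.

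Ligation cuts sensory neurons of L5 off from their targets, and axotomised neurons are known to switch their expression: injury-related transcription factors and peptides are induced, while transmitters and ion channels of the intact neuron are reduced. In the L4 ganglion most axons are spared, and they run in a nerve beside the degenerating fibres of L5. The L4 ganglion of an operated rat is therefore not an untouched control, and the labels do not say whether the L4 and L5 pools came from the same rats.

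With 1 pool per ganglion at 50 days, the spread between the 2 arrays of a pool is technical, and no test of the 50-day difference was possible. Differences are given as L5 minus L4 on the scale log2(signal + pseudocount), which understates changes of dim genes, with the technical SD, the pooled SD between the 2 arrays of a pool. A probe set was called where the ganglia differed by at least 2-fold (1 on the log2 scale) and both L5 arrays lay beyond both L4 arrays. Statements that a gene rose or fell rest on a limma fit over the L5, L4 and sham pools of both days (n = 2 pools per condition, 2 residual degrees of freedom), which includes the 50-day pools themselves. Called values just inside the 2-fold limit included Csf1 at 1.0008 and Prkcd at -1.0011, and Hexd at 0.99997 lay just outside it.

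Both ganglia gave strong signals for genes that define sensory neurons. Peripherin, Prph, an intermediate filament of peripheral neurons, had signals of 3561 and 3391 on the L5 arrays and 4458 and 4683 on the L4 arrays. The neurofilament gene Nefl had 10405 and 8150 in L5 and 5881 and 6887 in L4, against a median of 151 over all tested probe sets. The labelled tissue thus held its defining neuronal transcripts in both pools. In these bulk pools fewer cells of a type and less RNA per cell cannot be told apart.

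Array quality differed between the ganglia in ways that touch every value below. The signal of the hybridisation controls, which are spiked in equal amounts, was higher on L5 than on L4 arrays by 0.59, 0.67 and 0.80 on the log2 scale for chips A, B and C, and at 28 days by 0.73, 0.95 and 0.80. The ratio of 3' to 5' probe set signals of GAPDH, which grows as RNA degrades, was lower on the 50-day L5 arrays than on the L4 arrays without overlap: 4.35 and 3.80 against 5.79 and 5.38 on chip A, 3.90 and 3.48 against 5.87 and 4.92 on chip B, and 2.99 and 5.13 against 6.10 and 6.61 on chip C. At 28 days it was also lower in L5 on chip C, overlapped on chip A and was higher in L5 on chip B. Its part in the differences was not tested. The deposited signals had been scaled to 1 mean per array. Rescaled to the hybridisation controls, the median of all tested probe sets moved to -0.59, against 0.02 as deposited, and with the arrays centred on their medians it moved to -0.15. The differences below are therefore relative to the mean signal of an array, and the part of the total amount of RNA in them was not tested. Across tested probe sets, paired arrays of the L5 pool had r = 0.880 to 0.920 and those of the L4 pool r = 0.919 to 0.940.

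Of 15721 tested probe sets, 627 (3.99%) were called higher in L5 than in L4 at 50 days and 442 (2.81%) were called lower. Centred on array medians, the numbers were 368 higher and 715 lower, with quantile normalization 504 and 585, and with scaling to the hybridisation controls 106 and 3189, so the balance of directions depended on the scaling. Probe sets called higher were mostly dim, with 392 among the dimmest 5240 tested probe sets and 78 among the brightest 5241, and those called lower were divided 211 to 101. Against sham ganglia of the same day, which enter both values, the probe sets called higher had a median of 0.81 in L5 and -0.46 in L4, and those called lower had a median of -1.09 in L5 and 0.19 in L4. The calls were made on the same L5 and L4 arrays, so the selection itself sets part of this split around sham. At the gene level, taking the brightest tested probe set of each of 8270 genes, 229 (2.77%) were called higher and 210 (2.54%) lower. The counts of called list members below are read beside these shares.

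The 28-day pools share no array with the 50-day comparison and show which differences recurred. Of the 627 probe sets called higher at 50 days, 52 (8.29%, 95% Wilson interval 6.38 to 10.7) were called higher at 28 days too, against 3.26% of all tested probe sets. Of the 442 called lower, 91 (20.6%, interval 17.1 to 24.6) were called lower at 28 days, against 3.19% of all. The both-day calls were 0.331% (higher) and 0.579% (lower) of all tested probe sets. The intervals treat probe sets as independent, which genes with several probe sets are not. They hold no spread between pools, since each day has 1 pool per ganglion. Recurrence was more frequent among bright probe sets. Among the brightest 5241, 20.5% of those called higher and 31.7% of those called lower recurred, against 6.89% and 17.5% among the dimmest 5240. Of all tested probe sets among the brightest, 2.59% were called higher at 28 days and 3.80% lower. Among the dimmest these shares were 4.68% and 3.45%, so higher calls of dim probe sets recurred little above the share of all. Across all tested probe sets the differences of the 2 days correlated at r = 0.319, a description over probe sets and not over samples.

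**Figure D1:**
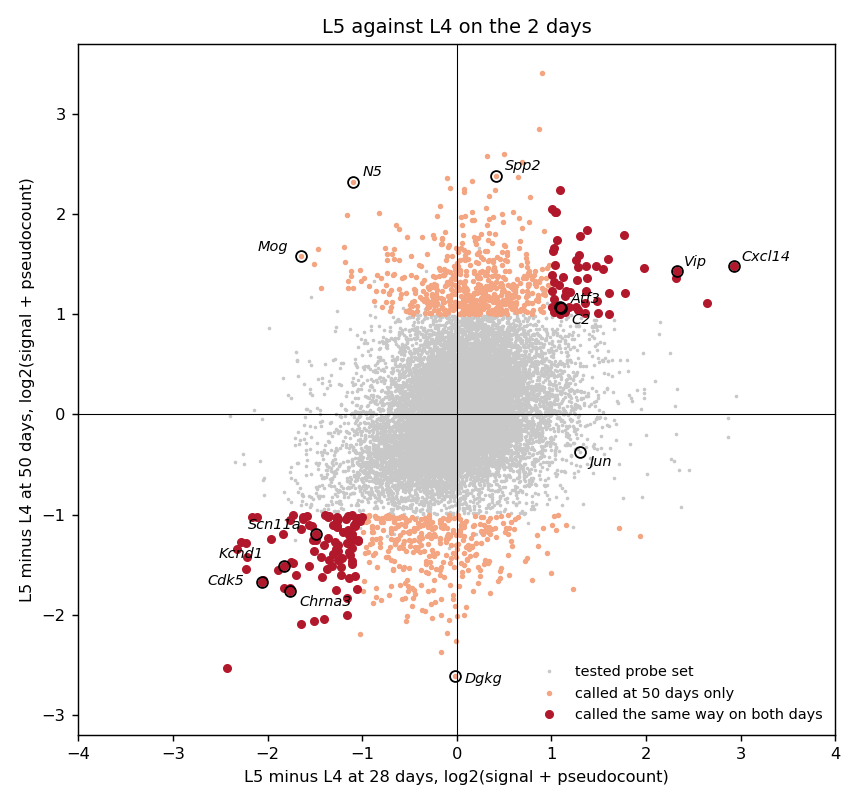
Difference L5 minus L4 of each of the 15721 tested probe sets at 28 days (horizontal axis) and at 50 days (vertical axis), both on the log2(signal + pseudocount) scale, with selected genes ringed. The 52 probe sets called higher and the 91 called lower on both days (dark points) lie in the upper right and lower left, while most probe sets called at 50 days alone (light points) lie near 0 at 28 days.

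**Figure D2:**
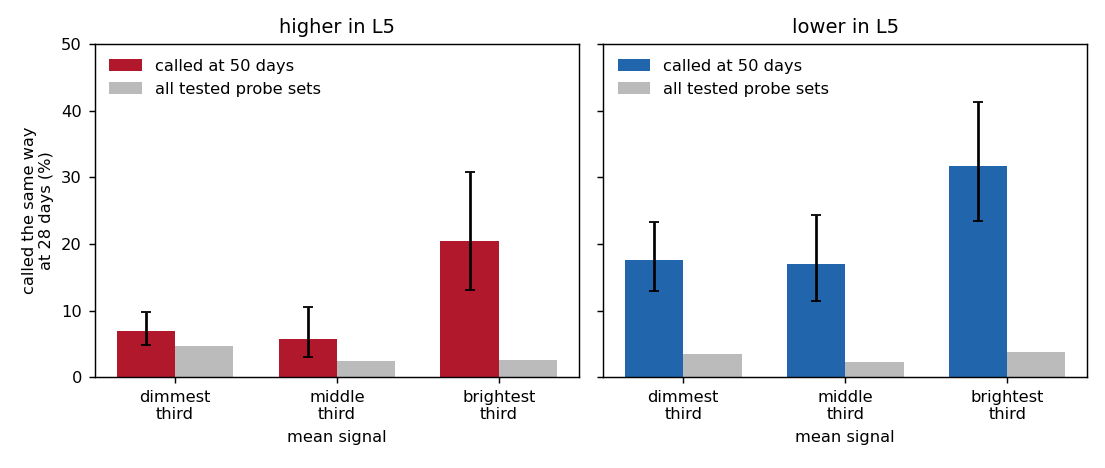
Percent of the probe sets called at 50 days that were called the same way at 28 days (coloured bars, with 95% Wilson intervals), for the dimmest, middle and brightest tested probe sets by mean signal, beside the percent of all tested probe sets of that group called that way at 28 days (grey bars); left, higher in L5, and right, lower in L5. Both coloured series are tallest for the brightest probe sets, at 20.5% and 31.7%. The intervals are over probe sets and hold no spread between pools.

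In the limma fit over both days, 41 probe sets (0.261%) rose and 158 (1.01%) fell in L5 against L4 at a Benjamini-Hochberg adjusted p under 0.05, and 3053 had an unadjusted p under 0.05. Of the probe sets called at 50 days, 30 of the 627 higher and 83 of the 442 lower were among them. These counts rest on the intensity trend in the variance prior: without it no probe set passed in either direction. Of the genes that the naming rules picked, 22 passed, and 9 of these, Cdk5, Chrna3, Dpysl4, Kcnd1, Kcnd3, Scg5, Scn11a, Tesc and Atp2b3, also passed with any 1 of the 4 ganglion pools left out. With quantile normalization, 14 of the 22 no longer passed (adjusted p in limma 0.0510 to 0.105), namely Atf3, Atp2b3, Casr, Cast, Cntn1, Cxcl14, Gabbr2, Kcns1, Kifap3, Npy, Prrc2c, Scg5, Scn10a and Scn1a, so that 7 passed there and in every fit without 1 ganglion pool. With the L5 and L4 pools alone, without sham, only Kifap3 of the 22 was lost (0.0724). Each fit with 1 ganglion pool left out keeps 1 pool of that ganglion, whose variation between days then no longer counts. Without an L5 pool more probe sets passed than in the full fit, so passing there is no evidence of stability. Without the 28-day L4 pool, 10 of the 22 no longer passed (adjusted p in limma 0.0545 to 0.144), namely Atf3, Cast, Cntn1, Cxcl14, Kcns1, Kifap3, Npy, Scn10a, Scn1a and Vip. Without the 50-day L4 pool, Casr, Cast, Gabbr2, Kifap3 and Prrc2c no longer passed (0.148 to 0.269). The same held for Cxcl14 and Scn1a without the 28-day L5 pool (0.0505 to 0.131) and for Kifap3 without the 50-day L5 pool (0.0566).

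Vip, the gene of vasoactive intestinal peptide, was the one injury-induced peptide called at 50 days. Its signals were 300.0 and 302 on the L5 arrays, against 101 and 96.8 on the L4 arrays, 2.69-fold higher (difference 1.43, technical SD 0.03). The arrays of the ganglia did not overlap, and the sham arrays, at 47.1 and 30.2, lay below both. At 28 days the difference was 2.33, and over both days Vip rose by 1.88 ± 0.24 (SE, n = 2 pools, limma adjusted p = 0.0179). A second, dim Vip probe set differed by 1.28 at 50 days and by 0.84 at 28 days.

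Neuropeptide Y, Npy, another peptide of injured sensory neurons, had 357 and 203 in L5 and 113 and 168 in L4, a difference of 0.904 that missed the 2-fold limit although the arrays did not overlap. Over both days Npy rose by 1.18 ± 0.22 (SE, limma adjusted p = 0.0319), with a 28-day difference of 1.46. Galanin, Gal, had 131 and 223 in L5 and 110.0 and 129.5 in L4 at 50 days (difference 0.48), with 1.17 at 28 days and an adjusted p of 0.126 in limma. On their brightest probe sets all 3 peptides thus gave a smaller L5 against L4 difference at 50 than at 28 days, which was not tested. The dim Vip probe set had the opposite order. Adcyap1, the gene of the peptide PACAP, was at 215 and 302 in L5 and 339.6 and 381 in L4 (difference -0.47). Of 10 tested genes listed as injury-induced peptides, 1 was called higher and 0 lower, and the list median was 0.19 against -0.02 for all genes. With scaling to the hybridisation controls that median was -0.40.

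Peptides and processing proteins of intact sensory neurons were mostly lower in L5. Scg5, the secretogranin that acts as a chaperone of a prohormone convertase, had 519.6 and 407 in L5 and 873 and 1010.3 in L4, 2.01-fold lower (-1.01, technical SD 0.200), and fell over both days (limma adjusted p = 0.0224). Calca, which encodes calcitonin gene-related peptide, had 802 and 1161 in L5 and 1642 and 1473 in L4, a difference of -0.68 with an adjusted p of 0.0552 in limma. Tac1, the precursor of substance P, had 1711 and 2199 in L5 and 2969 and 2699 in L4 (difference -0.54, limma adjusted p = 0.0535), and its 28-day difference was -1.47. Neither Calca nor Tac1 overlapped between the ganglia.

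Somatostatin, Sst, did overlap, with 427 and 748 in L5 and 817 and 688 in L4. Of the 11 tested genes of sensory peptides and their processing, 10 had a value below 0 and 8 had both L5 arrays below both L4 arrays, although only Scg5 was called. Both L5 arrays lay below both L4 arrays for 26.7% of all tested probe sets. The list median was -0.67 at 50 days and -0.99 at 28 days. Relative to the median of all probe sets it lay between -0.87 and -0.45 over the alternative settings. Besides Scg5, the granins Scg2 (-0.85, limma adjusted p = 0.0277) and Chgb (-0.67, adjusted p = 0.0469) and the prohormone convertase Pcsk2 (-0.99, adjusted p = 0.0466) fell over both days. The exception was Vgf, a secreted granin family member, at 0.96.

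**Figure D3:**
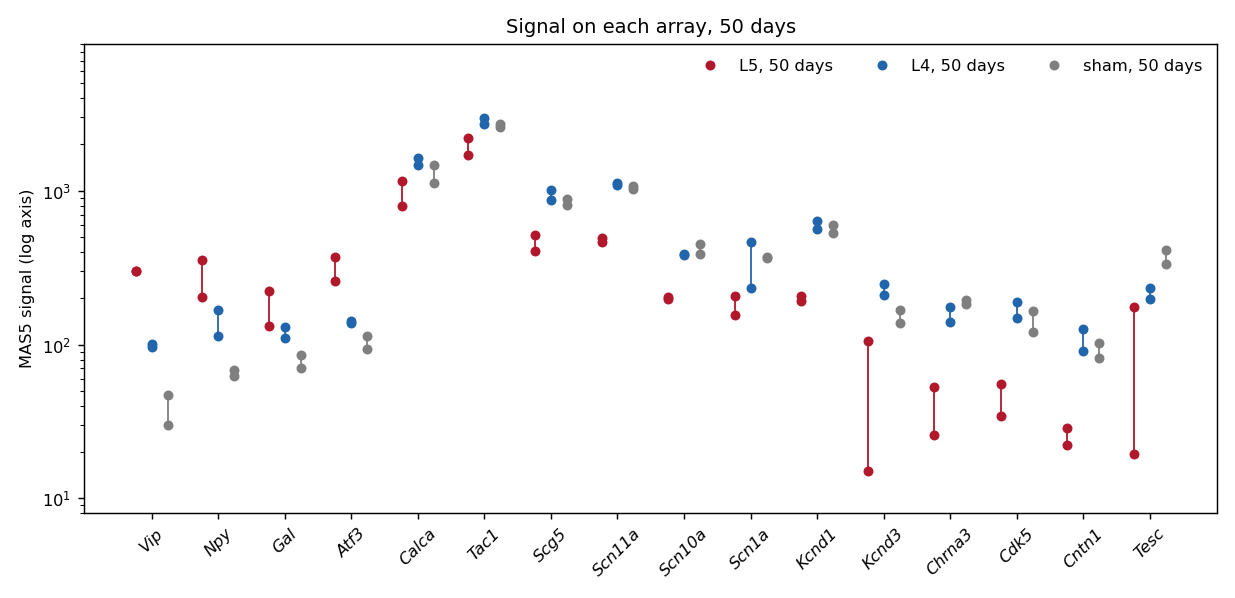
MAS5 signal of 16 genes on each of the 2 arrays of the L5, L4 and sham pools at 50 days (log axis, arrays of a pool joined by a line). Vip and Atf3 lie higher on both L5 arrays than on the others, Scn11a and Kcnd1 lie lower, and the L5 arrays of Kcnd3 and Tesc lie far from each other.

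The activating transcription factor Atf3, a marker of axotomised neurons, had 258 and 374 on the L5 arrays and 139 and 143 on the L4 arrays, 2.11-fold higher (difference 1.08, technical SD 0.26). The arrays did not overlap, the 28-day difference was 1.09, and over both days Atf3 rose by 1.08 ± 0.21 (SE, limma adjusted p = 0.037). Jun, a transcription factor of the regeneration programme, had 114 and 130.4 in L5 and 173 and 150.4 in L4 at 50 days (difference -0.37), but 619 and 525 in L5 and 244 and 205 in L4 at 28 days (difference 1.302). The growth-associated protein gene Gap43 had 1645 and 1730.2 in L5 and 1504 and 1426 in L4 (difference 0.203), and Gadd45a, a stress-response gene, differed by 0.07. Gch1, the first enzyme of tetrahydrobiopterin synthesis, was called at 50 days with 151 and 128 in L5 and 48.1 and 77.2 in L4, but its 28-day difference was -0.12. Of 41 tested axon injury and regeneration genes, 3 were called higher (Vip, Atf3 and Gch1) and 0 lower, with a median of 0.16 at 50 days and 0.40 at 28 days. The 50-day median changed sign with the scaling, to -0.04 with median centring and -0.33 with the hybridisation controls.

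The promoters of Vip and Cxcl14, a chemokine gene described further on, are shown because these genes had the largest 28-day differences among the named genes called higher at 50 days. The sequences are from RefSeq (GRCr8), 250 bases before to 50 bases after the annotated start, read on the plus strand, Vip at chr1:44470230-44470529 and Cxcl14 at chr17:8322900-8323199. Capitals mark TGACGT in Vip and TGANTCA in Cxcl14, searched on both strands. TGACGT was chosen after the Vip promoter had been seen.
Vip: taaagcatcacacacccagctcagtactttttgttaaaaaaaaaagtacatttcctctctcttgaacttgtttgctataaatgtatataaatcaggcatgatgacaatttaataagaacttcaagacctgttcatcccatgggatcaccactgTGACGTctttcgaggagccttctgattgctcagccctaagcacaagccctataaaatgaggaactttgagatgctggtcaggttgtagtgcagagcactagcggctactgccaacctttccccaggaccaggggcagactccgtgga
Cxcl14: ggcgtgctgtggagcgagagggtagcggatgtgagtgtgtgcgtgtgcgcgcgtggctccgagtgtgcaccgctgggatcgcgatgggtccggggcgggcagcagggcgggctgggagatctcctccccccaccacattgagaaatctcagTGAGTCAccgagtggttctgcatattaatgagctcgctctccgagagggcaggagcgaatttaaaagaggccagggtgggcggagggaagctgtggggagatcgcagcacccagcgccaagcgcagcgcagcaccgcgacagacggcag
The matches began 97 bases before the start in Vip and 99 bases before it in Cxcl14. TGACGT, the core shared with TGACGTCA, was present in 7.94% of all 33469 promoters and TGANTCA in 7.33%. Of 282 genes called higher at 50 days that had a promoter entry, 22 (7.80%) held TGACGT and 13 (4.61%) held TGANTCA. Among all genes with a tested probe set and a promoter entry, the shares were 11.7% and 5.38%. Of those called higher on both days, 4 of the 22 with a promoter entry held TGACGT and 2 held TGANTCA, numbers too small to set against those shares. A match is a description of letters and no evidence of binding.

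Among voltage-gated sodium channels, Scn11a, the persistent tetrodotoxin-resistant channel Nav1.9 of small sensory neurons, had 461 and 492 in L5 and 1129.5 and 1087 in L4, 2.29-fold lower (-1.196, technical SD 0.05). The L4 arrays lay close to the sham arrays at 1023 and 1070.5, and over both days Scn11a fell by 1.34 on the log2 scale (SE 0.19, limma adjusted p = 0.02). Scn10a, the other tetrodotoxin-resistant channel, had 198 and 205 in L5 and 385 and 386 in L4 (-0.89, technical SD 0.02), short of 2-fold, and fell over both days (limma adjusted p = 0.0393). Scn1a had 156 and 208 in L5 and 462 and 234 in L4 (-0.82, -1.296 to -0.35 with 1 array left out) and fell over both days (adjusted p = 0.0398).

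The auxiliary beta subunits Scn3b and Scn4b were lower by non-overlapping arrays, at -0.88 and -0.58, with 28-day differences of 0.37 and -0.99. Scn9a, the channel Nav1.7, had 177 and 202 in L5 and 212 and 187 in L4 (-0.07). Scn3a, a channel known to be induced by axotomy, had 111 and 143 in L5 and 57.6 and 128 in L4, and its arrays overlapped. Scn4a, the skeletal muscle channel, was the 1 of 10 tested members called higher, at 212 and 179.7 in L5 and 84 and 52.6 in L4, with -0.14 at 28 days. The list median was -0.32, and -0.36 at 28 days.

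A-type potassium channel genes of the Kv4 family were lower in L5. Kcnd1 (Kv4.1) had 206 and 192 in L5 and 633 and 568 in L4, 2.85-fold lower (-1.51, technical SD 0.09), with a 28-day difference of -1.83 and a fall over both days of 1.67 on the log2 scale (SE 0.18, limma adjusted p = 0.0177). Kcnd3 (Kv4.3) had 15.1 and 106 in L5, 246 and 211 in L4 (-2.06). Its 2 L5 arrays differed so much that the value ran over -3.11 to -1.01 with 1 array left out, yet both lay below both L4 arrays, and Kcnd3 fell over both days (limma adjusted p = 0.0214).

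A dimmer Kcnd3 probe set differed by 0.45 and did not share this pattern. Dpp6, an auxiliary subunit of Kv4 channels, was dim, at 45.6 and 17.2 in L5 and 76.7 and 104 in L4 (-1.29, 28 days -1.13), without passing limma (adjusted p = 0.11). Kcns1, a silent subunit of Kv2 channels, had 116 and 104 in L5 and 227 and 225 in L4 (-0.96) and fell over both days (adjusted p = 0.0443). Kcnk1, a background leak channel, fell over both days too (-0.94, adjusted p = 0.0351). Of 28 tested genes in the potassium channel list 3 were called lower, all 3 on both days, and 1 higher, Kcnh5, whose 28-day difference was -0.69. Kcnk5, a potassium channel gene outside that list, was called higher on both days (1.01, 28 days 1.09). Its signals at 50 days were dim, at 114 and 104 in L5 and 21.7 and 93.9 in L4. At 50 days 2.54% of all genes were called lower and 2.77% higher.

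The nicotinic receptor subunit gene Chrna3 had 25.7 and 52.8 in L5 and 141 and 176 in L4, 3.4-fold lower (-1.76, technical SD 0.41). The 28-day value was also -1.76, and it fell over both days (limma adjusted p = 0.0214). Gabbr2, a subunit of the GABA-B receptor, had 444 and 440.4 in L5 and 1092 and 1039 in L4 (-1.24) and fell over both days (adjusted p = 0.047), although a dim second probe set of it was called higher at 1.697. Casr, the calcium-sensing receptor, had 67.4 and 28.5 in L5 and 199 and 145 in L4 (-1.67) and fell over both days (adjusted p = 0.0444).

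A pair of receptor genes was called higher at 50 days without recurring: the prostacyclin receptor Ptgir, at 382 and 268 in L5 and 66.3 and 118 in L4 (28-day difference 0.06), and the bradykinin B1 receptor Bdkrb1, at 268 and 169 in L5 and 88.6 and 82.2 in L4 (28-day difference -0.26). Asic1, an acid-sensing channel, was called on signals of 225 and 220.3 in L5 and 24.4 and 106 in L4, and leaving out 1 array moved its difference over 0.98 to 2.66. The transduction channels Trpv1, the heat and capsaicin receptor, and P2rx3, an ATP-gated channel, differed by -0.14 and -0.03 with overlapping arrays. Cacna2d1, the channel subunit that binds gabapentin, had 593 and 617 in L5 and 543 and 534 in L4 (0.16), with 0.56 at 28 days.

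Of the cytoskeleton and identity genes 3 were called lower on both days, and of the calcium-binding proteins and pumps 2. Cdk5, a kinase of post-mitotic neurons, had 34.5 and 55.5 in L5 and 189 and 149.6 in L4 (-1.67, -2.06 at 28 days, limma adjusted p = 0.0214). Cntn1, the axonal adhesion molecule contactin, had 28.5 and 22.2 in L5 and 126 and 90.2 in L4 (-1.66, adjusted p = 0.0266). Dpysl4, a collapsin response mediator protein of growth cones, had 49.1 and 129 in L5 and 236 and 258 in L4 (-1.47, -2.07 to -0.87 with 1 array left out, adjusted p = 0.0214).

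These 3 genes fell over both days, and in each the ganglia did not overlap. Tesc, the calcium-binding protein tescalcin, had 19.5 and 176 in L5 and 234 and 197 in L4, and its difference of -1.54 ran over -2.81 to -0.27 with 1 array left out. It fell over both days (limma adjusted p = 0.023), with -1.38 at 28 days. Atp2b3, a plasma membrane calcium pump, had 159 and 319 in L5 and 549 and 396 in L4 (-1.003, adjusted p = 0.0266) and fell too. Its value ran over -1.48 to -0.53 with 1 array left out, and 1 of its dim probe sets pointed the other way, at 0.91.

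Rbfox3, whose product is the neuronal marker NeuN, had 1299 and 1396 in L5 and 2631 and 2917 in L4 (-1.03, technical SD 0.09), with -0.61 at 28 days. It missed the limma threshold (adjusted p = 0.0703). The neurofilament gene Nefh split by probe set: the brighter one had 3447 and 3615 in L5 and 3312 and 3689 in L4 (0.01), while the dimmer one had 261 and 381 in L5 and 1025 and 606 in L4 (-1.29). Of 37 tested cytoskeleton and identity genes, 4 were called lower, 3 of them on both days, and 0 higher. The median was -0.22, and 19 genes had non-overlapping arrays with L5 lower, against 6 with L5 higher. Over all tested probe sets these shares were 26.7% lower and 28.2% higher.

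Genes of synaptic vesicle release were lower in L5 as a list, by small amounts. Of 30 tested members, 22 had both L5 arrays below both L4 arrays and 1 had both above, and the median was -0.51 (between -0.53 and -0.36 relative to all probe sets over the alternative settings). Called lower were only the small GTPase gene Rab3c, at 9.4 and 32.6 in L5 and 59.1 and 52.7 in L4, and the synaptotagmin Syt5, whose value ran over -1.98 to -0.06 with 1 array left out. Slc32a1, the vesicular transporter of inhibitory transmitters, was the 1 called higher (1.17, 28 days 0.07). Over both days Syn1, a vesicle phosphoprotein (-0.85, limma adjusted p = 0.0463), and Nsf, the ATPase that takes SNARE complexes apart (-0.60, adjusted p = 0.0469), fell. Among all tested probe sets, 28.2% had both L5 arrays above and 26.7% both below both L4 arrays. Energy metabolism differed by less: of 69 oxidative phosphorylation genes 39 lay apart with L5 lower and 5 with L5 higher, with a median of -0.27 on both days, and the single call was the complex I subunit Ndufv1, at 324 and 435 in L5 and 775 and 962 in L4. The other Ndufv1 probe sets were at 0.601 and -0.42. The ATP synthase subunit Atp5mc3 fell over both days (-0.88, limma adjusted p = 0.0319). These bright lists are read against a median of -0.14 among the brightest 5241 probe sets and 0.18 among the dimmest 5240, so brightness moved with the list medians, and its part in them was not tested.

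In lipid synthesis the transcriptional regulators Srebf1, at 123 and 59.9 in L5 and 286 and 291 in L4 (-1.55), and Srebf2, at 421 and 456 in L5 and 1032 and 1368 in L4 (-1.404), were the 2 called lower of 24 genes. At 28 days they differed by -0.38 and 0.54. A dimmer Srebf2 probe set was at -0.22. For Srebf2 the L4 signal also stood above sham at 50 days, by 1.001, with L5 at -0.404. The list median was -0.32 at 50 days and -0.40 at 28 days.

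Most immune gene lists were higher in L5 by modest amounts on the deposited scale, with few calls. The 17 tested MHC class I and immunoproteasome genes were nearly level, with a median of 0.06. Of these, 5 had non-overlapping arrays with L5 higher and 4 with L5 lower. With scaling to the hybridisation controls the 50-day medians of MHC class II, T lymphocyte and macrophage genes became -0.10, -0.06 and -0.17, and that of cytokines 0.04, while median centring kept them positive (0.34, 0.27, 0.19 and 0.33). All 9 tested MHC class II genes, which present antigen, had a positive difference, 8 of them with non-overlapping arrays, and 0 were called. Over all tested probe sets 51.2% had a positive difference, and 28.2% had non-overlapping arrays with L5 higher. The class II median was 0.55 at 50 days and 0.58 at 28 days. The summed signal of the class II genes was 5108 and 5110 on the L5 arrays, against 3142 and 3791 on the L4 arrays. RT1-Db1 had a difference of 0.57, RT1-Da 0.55, and Ciita, the master regulator of class II transcription, 0.63. Cd74, the invariant chain, depended on the probe set: the brightest gave 0.43, a second 1.46 and another -1.34.

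T lymphocyte genes had a median of 0.48, with all 9 tested members above 0. Cd3e, a subunit of the T cell receptor complex, was called with 256 and 309 in L5 and 124 and 122 in L4 (1.07), and its relative Cd3g, which is dim, was at 0.96. The summed signal of these genes was 1546 and 1273 in L5 and 759 and 991 in L4, and no member was listed at 0 on all arrays. C2, a complement protease of the classical pathway, had 157 and 197 in L5 and 94.5 and 58.7 in L4 (1.07, 1.100 at 28 days, limma adjusted p = 0.0687), the 1 called of 16 complement genes. Their median was 0.41, with 9 apart higher and 4 apart lower. The summed signal of the complement genes was nevertheless lower in L5, at 8816 and 8861 against 10480 and 10078 in L4.

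Macrophage genes stood differently on the 2 days. Of 21 tested, 0 were called at 50 days and 11 were called higher at 28 days, with medians of 0.40 and 1.16; of all genes 2.83% were called higher at 28 days. Lyz2, lysozyme, differed by -0.097 at 50 days and 1.69 at 28 days. Gpnmb, a glycoprotein of lipid-laden macrophages, was -0.93 at 50 days and 2.36 at 28 days, while C1qa, a complement subunit made by macrophages, was 0.85 and 1.66. Extracellular matrix genes followed the same order, with 0 of 52 called at 50 days (median 0.03) and 17 called higher and 1 lower at 28 days (median 0.72). Between the days only 1 pool of each ganglion exists, and this difference was not tested.

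Of the cytokine and chemokine genes, a pair of chemokines was called higher on both days. Cxcl14, a chemokine of epithelia and sensory ganglia, had 31.4 and 55.6 in L5 and 6 and 7.8 in L4 (1.48, technical SD 0.32), and all 3 of its tested probe sets were higher in L5. At 28 days its signals were 502 and 529.6 in L5 and 70.2 and 45 in L4 (2.93), and over both days it rose by 2.21 ± 0.41 (SE, limma adjusted p = 0.0319). Cxcl13, which attracts B cells, had 73.8 and 57.7 in L5 and 3.8 and 27.9 in L4 (1.59), without passing limma (adjusted p = 0.0864). Of 22 tested cytokine and chemokine genes these were the 2 called higher, 0 were called lower, and the median was 0.53.

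**Figure D4:**
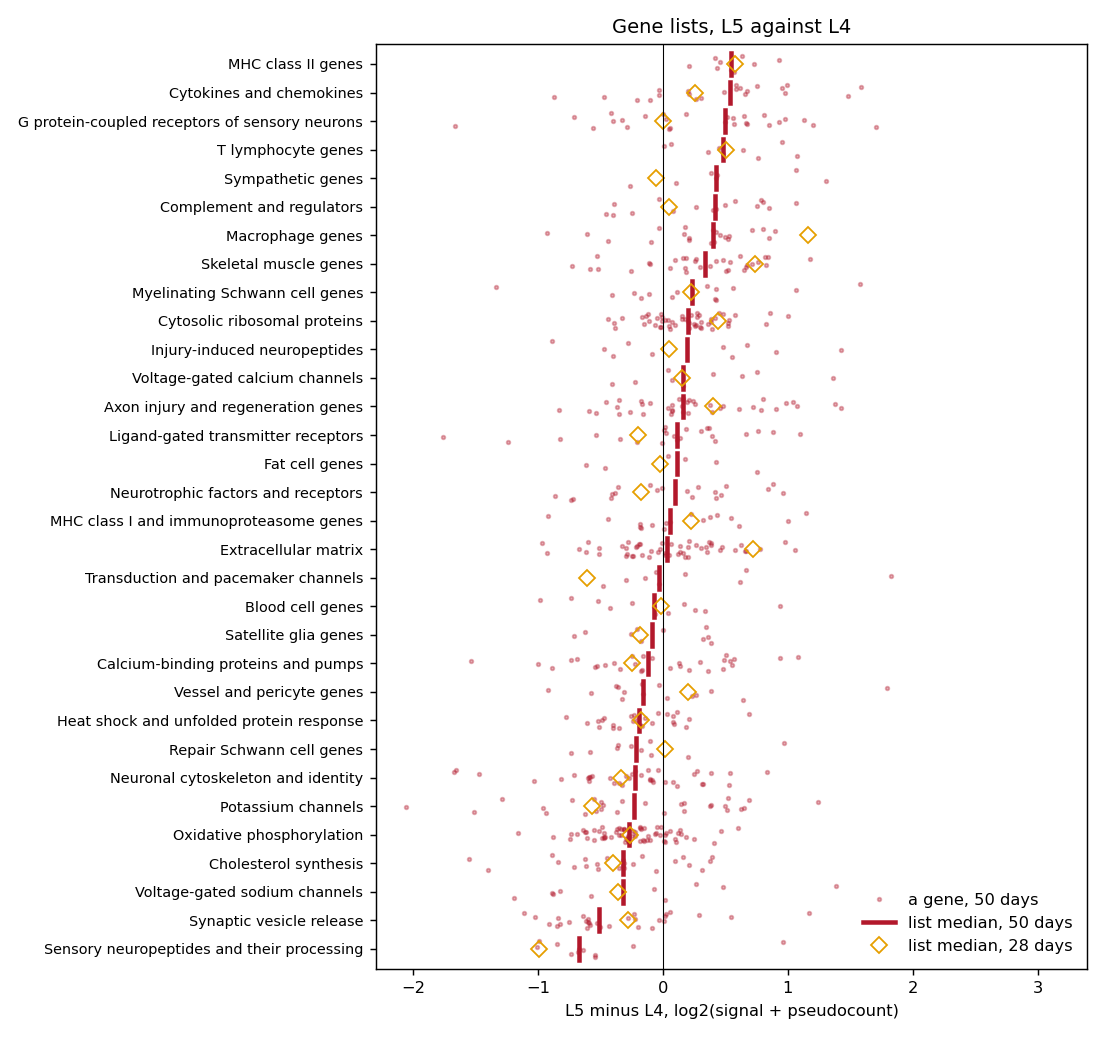
Difference L5 minus L4 of the tested genes of 32 lists (points, brightest probe set of each gene, log2(signal + pseudocount) scale) with the list median at 50 days (bar) and at 28 days (diamond). Sensory peptides and synaptic vesicle genes have the lowest 50-day medians, MHC class II genes and cytokines, on the deposited scale, the highest, and macrophage and matrix genes have far higher medians at 28 days.

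Skeletal muscle and sympathetic genes were also higher in L5 on the deposited scale, with medians of -0.23 and -0.10 under hybridisation-control scaling. Skeletal muscle genes had a median of 0.33 at 50 days and 0.74 at 28 days, with 25 of 32 above 0, 17 with non-overlapping arrays higher and 1 called. That was the giant filament protein nebulin, Neb, at 144 and 173 in L5 and 63.6 and 53.3 in L4. Non-overlapping arrays with L5 higher were found for 28.2% of all tested probe sets, and 2.77% of all genes were called higher. The summed signal of the muscle genes was 9615 and 8885 in L5 and 7446 and 7754 in L4. Sympathetic genes included 2 called higher of 7, the vesicular monoamine transporters Slc18a1 (1.303) and Slc18a2 (1.07), with 28-day differences of -0.24 and 0.05. The part of muscle and sympathetic genes in other differences was not tested. Satellite glia genes had a median of -0.09 and repair Schwann cell genes -0.22, with 0 called in either list.

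Of the 14 largest positive differences among called probe sets with 1 gene name, 1 was called higher at 28 days, and the median 28-day difference was 0.24; of the 14 largest negative ones, 3 were called lower at 28 days, with a median of -0.22. In 9 of the 14 positive ones the L4 mean signal was under 50, and in 11 of the 14 negative ones the L5 mean was. Spp2, a secreted phosphoprotein, led with 106 and 107 in L5 and 6.6 and 14.1 in L4 (2.38, 5.21-fold, 28 days 0.42), and Gip, the gene of an incretin peptide, had 124 and 94.5 in L5 and 10 and 15.5 in L4 (2.26). Both L4 values lay below the sham values, 35.2 and 25.8 for Spp2 and 21 and 69.6 for Gip.

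Thy1, a surface glycoprotein of neurons, was among the 14 positive ones through 1 dim probe set (2.36), while its 2 brightest probe sets gave -0.33 and 0.13. Egr1, an immediate early transcription factor, likewise gave 1.99 on a dim probe set and 0.07 on its brightest. Prrc2c was the bright exception, at 1406 and 2089.9 in L5 and 499 and 341 in L4 (2.02), and it rose over both days (limma adjusted p = 0.049). Among probe sets called higher whose gene had other tested probe sets, 22 of 178 (12.4%) had another one called higher, and among those called lower 12 of 186 (6.45%) had another called lower. Calls over all tested probe sets were 3.99% higher and 2.81% lower. These are shares of single probe sets, whereas a gene with several others has more openings for another call. The 2 kinds of share are therefore not on a like basis.

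Dgkg, a diacylglycerol kinase, had the largest negative difference among named genes, with 6.5 and 5 in L5 and 102 and 99.6 in L4 (-2.61, 6.12-fold lower), but at 28 days it was at 57.4 and 67 in L5 and 56.9 and 69.6 in L4 (-0.02). Srm, spermidine synthase, had 51.3 and 69.7 in L5 and 332 and 402 in L4 (-2.27, 28 days -0.01). On these probe sets the ganglia were apart at 50 days and level at 28 days. The other tested Srm probe set was level at 50 days too, with 90.1 and 74.2 in L5 and 85.8 and 84.5 in L4 (-0.05), and a Dgkg probe set too dim to be tested was at 1.69. Kifap3, an adaptor of the kinesin-2 motor, had 4 tested probe sets with 1 direction: all 4 were lower in L5, the one called at -2.19 and the others between -0.75 and -0.495, and the called one fell over both days (limma adjusted p = 0.0469). Cast, the calpain inhibitor calpastatin, fell over both days on 1 probe set (-2.09, adjusted p = 0.0412), whereas its brightest gave -0.09.

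**Figure D5:**
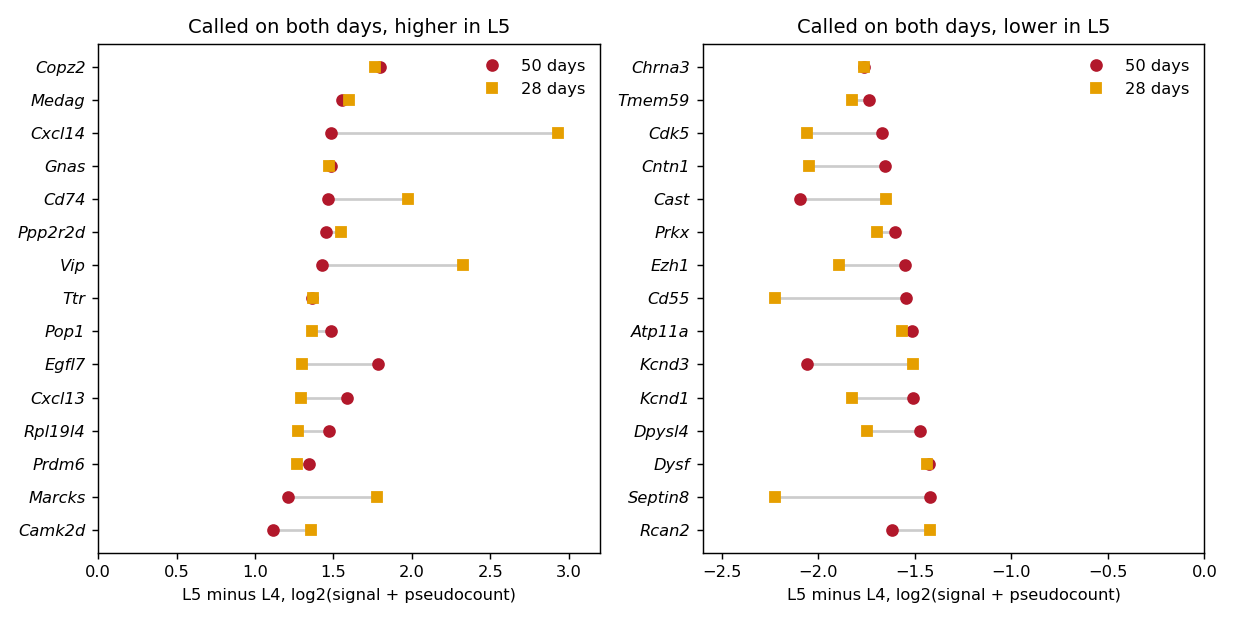
Genes called the same way on both days with the largest smaller-of-2-days difference, 1 probe set a gene, 15 higher in L5 (left) and 15 lower (right); circles give L5 minus L4 at 50 days and squares at 28 days, on the log2(signal + pseudocount) scale. Copz2 and Chrna3 had nearly equal values on both days, whereas Cxcl14 and Vip had larger values at 28 days.

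Further genes called on both days included, among those higher, Copz2, a subunit of the COPI vesicle coat, with 150.5 and 102 in L5 and 19.8 and 35.1 in L4 (1.795, 1.77 at 28 days), and Ttr, the thyroxine carrier transthyretin (1.36, 1.37). Among those lower were Cd55, a complement inhibitor of cell surfaces (-1.55, -2.22), the cytoskeletal GTPase Septin8 (-1.42, -2.22), and Rcan2, an inhibitor of calcineurin (-1.62, -1.42). Brighter probe sets differed less at 50 days for these last 3 genes: the brightest gave -0.25 for Cd55 (-0.97 at 28 days), 0.03 for Septin8 (-0.04) and -0.60 for Rcan2 (-1.04). These 5 were picked from the 143 probe sets called on both days after their values were seen.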

How the data were processed

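The authors deposited 1 linear intensity per probe set and array. MAS5 is named in the submitters' processing notes, with no version stated in these sources. The deposited mean intensity without the top and bottom 2% of values was 149.974 to 149.996 on all 36 arrays, so each array had been scaled to a common mean. Detection calls were not used here. Within a chip type, arrays were rescaled to 1 trimmed mean, and log2(signal + pseudocount) was taken with, as pseudocount, the 20th percentile of the chip type's deposited signals (12.8, 17.7 and 20.2 for A, B and C). Control probe sets were dropped, as were dim ones (mean signal below percentile 40 within their chip type), which left 15721. The number of arrays limits the precision.

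At 50 days the call was a difference of at least 2-fold with both L5 arrays beyond both L4 arrays. Averages of the 2 arrays of each of the 6 pools entered limma 3.58.1 in R 4.3.3 (condition and day as terms, intensity trend, Benjamini-Hochberg over the 3 chip types), which was tested on simulated data. In the simulation most 4-fold changes were recovered with noise set to each chip type's fitted variance, a choice made after a first run with arbitrary noise had recovered hardly any, so its power depends on the assumed noise. The pools are the only replicates. With day as a term, p-values rest on how far the condition differences varied between the 2 days, moderated by a variance prior from all tested probe sets of a chip type. Gene names came from the platform annotation (11770 of the tested probe sets have 1 gene), checked against RefSeq symbols of GRCr8, and promoters from RefSeq. Probe sets with several genes were not named, and near-identical genes may still share a probe set.

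Named genes are the 14 largest called differences in each direction with 1 gene, up to 4 called members of each of 32 lists, 33 genes named in any case, and 6 genes each called in opposite directions on the 2 days or at 50 days alone with a 28-day difference under 0.25; the genes called on both days with the largest smaller difference appear in a figure. A gene of a list is given by its brightest tested probe set. The members and lists were chosen with earlier results of these data known. Alternatives covered the scaling, the pseudocount, the filter, the fold limit and each array or pool left out.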

Additional observations from a re-analysis of the deposited data

Results flagged for a closer look

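Of the 98 named genes, 13 reversed between the days. In each, both L5 arrays lay above both L4 arrays on 1 day and below them on the other. Some of these 13 were named because they were called in opposite directions on the 2 days. The 13 are therefore no count over all genes, where reversals of any size were not counted. The reversals were not tested, since each day has 1 pool per ganglion. By the stricter call, which also asks for 2-fold on each day, 14 of all tested probe sets were higher at 50 days and lower at 28 days. The reverse held for 8, of 627 and 442 called at 50 days.

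Positive at 50 days were Mog, a myelin glycoprotein of the central nervous system, at 1.58 (28 days -1.65), on signals of 109.9 and 135 in L5 and 37 and 28 in L4, and Mobp, another myelin gene, at 1.06 (-0.15). Ahsg, a plasma glycoprotein gene of liver, was at 1.501 (-1.51), and Clps, the pancreatic colipase, at 1.67 (-1.19). N5 was at 2.33 (-1.09), and Sash3, an adaptor of lymphocytes, at 1.99 (-1.16). The receptor gene Bdkrb1 was at 1.204 (-0.26), the potassium channel Kcnh5 at 1.24 (-0.69) and the ribosomal protein gene Rps27 at 1.004 (-0.18).

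Negative at 50 days were Notch1, a cell-surface receptor, at -1.14 (1.71) on a dim probe set, the glial transcription factor Sox10 at -1.34 (0.13), Srebf2 at -1.404 (0.54) and Jun at -0.37 (1.302). Notch1 had no settled direction: its brightest probe set gave -0.03 (28 days 0.84), and another dim one was called higher at 1.41 (-0.74). The 4 tested Jun probe sets lay between 0.88 and 1.30 at 28 days and between -0.37 and 0.04 at 50 days.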

How the results depend on the processing

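No paired analysis was possible because the shared replicate numbers mark the 2 technical arrays of 1 pool and the 50-day comparison comes from no test. Recurrence, both-day counts and the brightest probe sets under other settings were added after seeing the data. Probe sets called higher and lower at 50 days numbered 368 and 715 with median centring, 106 and 3189 with hybridisation-control scaling, 262 and 195 with the pseudocount at the 40th percentile, 252 and 230 with the filter at the 60th percentile, 1990 and 1448 at 1.5-fold, 78 and 101 among the brightest 5241, 728 to 1026 and 501 to 875 with 1 array left out, and 1310 higher with no filter. On both days 52 higher and 91 lower became 20 and 167 with median centring, 2 and 1687 with hybridisation controls, 11 and 36 with the higher pseudocount, 23 and 54 with the stricter filter, 336 and 491 at 1.5-fold; higher ones were 31 with quantile normalization, 95 with no filter and 64 to 81 without 1 array. The higher calls that recurred were 5.43% with median centring, 6.15% with quantile normalization, 1.89% with hybridisation controls, 4.20% with the higher pseudocount and 16.9% at 1.5-fold; lower calls 52.9% with hybridisation controls, 33.9% at 1.5-fold and 13.7% to 19.96% without 1 array. In limma, 41 higher and 158 lower became 0 and 0 without the intensity trend, 423 and 966 with arrays in pool blocks, 12 and 40 with quantile normalization, 68 higher with the 4 L5 and L4 pools alone, 625 lower with median centring, and 53 to 307 and 46 to 477 with 1 pool left out. By the call rule, a lower fold limit or no filter can only add calls, and with 1 array left out non-overlap is easier to meet. The cause of the other shifts was not tested. The named genes, called or not, had 882 values under other settings. Among the values of called genes alone, a smaller number, 0 changed sign. For called genes this was fixed in advance with 1 array left out or another pseudocount, because their arrays do not overlap. Only the other scalings could have reversed them. Genes not called did reverse with hybridisation-control scaling, such as Gal (0.48 to -0.05) and Gap43 (0.20 to -0.38). Of 32 list medians, 23 kept 1 sign relative to all probe sets. Signal over background limits dim genes: 392 of 627 higher calls lie among the dimmest 5240 probe sets.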
